A study of Homo sapiens with 8 samples.

Results

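Antisense long non-coding RNA genes lie on the DNA strand opposite to another gene, usually a protein-coding one. The genes described here are the rows of a deposited count table that GENCODE release 29 types as antisense and that held at least 50 reads in total over 8 libraries. There were 2600 of them among 5551 antisense genes in a table of 67060 genes. Of the others, 1285 were at 0, 1660 had a count under 50, and 6 were left out by the rule (antisense genes of the HOX clusters, KCNQ1OT1, GNAS-AS1 and ZFAS1). Members were thus selected on their summed counts over both groups, and a level above the minimum is no finding. At the minimum itself stood 12 members, and 22 antisense genes were 1 count short with 49. Member totals had a median of 202.5 reads and reached 34516 for HAND2-AS1.

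The cells were SH-SY5Y, an established line from a human neuroblastoma, called a neuronal progenitor in the labels. Each group had 4 libraries. The ERRg group received an adenovirus for BioID-Flag-Esrrg, the nuclear receptor ERR gamma joined to a biotin ligase used to label neighbouring proteins, and the GFP group one for BioID-GFP-NLS, a nuclear form of green fluorescent protein joined to the same ligase. Both groups carried virus and ligase for 48 h before RNA was isolated, after growth to 80% confluence, and no group without virus is analysed here. The comparison asks which RNAs differ when ERR gamma replaces GFP in the fusion. Each GFP library held 27.7 to 35.5 M gene reads and each ERRg library 21.02 to 23.0 M, so 1 CPM (count per M reads, on scaled library sizes) stood for 24.3 to 29.0 reads. ESRRG, the gene for ERR gamma, was at 32.7 to 37.1 CPM in GFP and 711 to 888 CPM in ERRg, and reads of the virus and of the cells' own gene cannot be told apart. Of 11 noradrenergic neuroblastoma markers, 7 reached 1 CPM, while TH and CHGA were listed at 0. CPSF1, a gene of mRNA 3′ end processing that every cell uses, was also listed at 0 in all 8 libraries, so a listing at or near 0 may be a failed count and is not read here as an absent RNA. Markers of other cell types were present. All 6 fibroblast markers reached 1 CPM and summed to 1569 to 1759 CPM in GFP and 891 to 985 CPM in ERRg, most of it COL3A1, above the noradrenergic sum of 623 to 719 and 396 to 454 CPM. Of 5 epithelial markers 4 did, at a sum of 239.9 to 319.9 and 172 to 243 CPM, most of it KRT18, as did 3 of 4 glial, 1 of 3 endothelial and none of 5 leukocyte markers. The part of other cells in the results was not tested.

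An antisense gene can share exons with its coding partner, sit in the partner's introns, meet it tail to tail, or start back to back with it from a shared promoter region. Antisense RNAs have been described as acting on the partner's transcription, splicing, stability or translation, and RNAs that start back to back from active promoters are often short-lived and removed by the nuclear exosome. Total RNA depleted of ribosomal RNA also holds unspliced precursors, whose introns give reads across every gene model that sits inside them.

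The counts do not separate the strands, although the labels describe a directional library. Non-coding genes with at least 95% of their exonic bases inside coding exons of the opposite strand were listed at 0 in all 8 libraries in 329 of 353 cases (93.2%), against 74 of 81 (91.4%) where the coding gene lies on the same strand. Among antisense genes covered in this way, 258 of 272 (94.9%) were at 0. These counts cover long non-coding types and processed pseudogenes, over coding genes that passed a minimum read total. AC006064.4 lies wholly opposite GAPDH, a glycolytic enzyme gene, and held 0 reads where GAPDH held 495092. Counting that kept the strands apart would have left the reads of covered antisense genes countable. Inside introns, where no exon of the coding gene competes, the median over genes was 231 reads per kilobase for antisense genes on the opposite strand and 294 for sense intronic genes on the same strand, summed over the 8 libraries. A value at an antisense gene is therefore the number of reads over those of its exons that no other gene shares, from either strand. RNA of the antisense gene and unspliced RNA of its partner cannot be told apart.

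**Figure D1:**
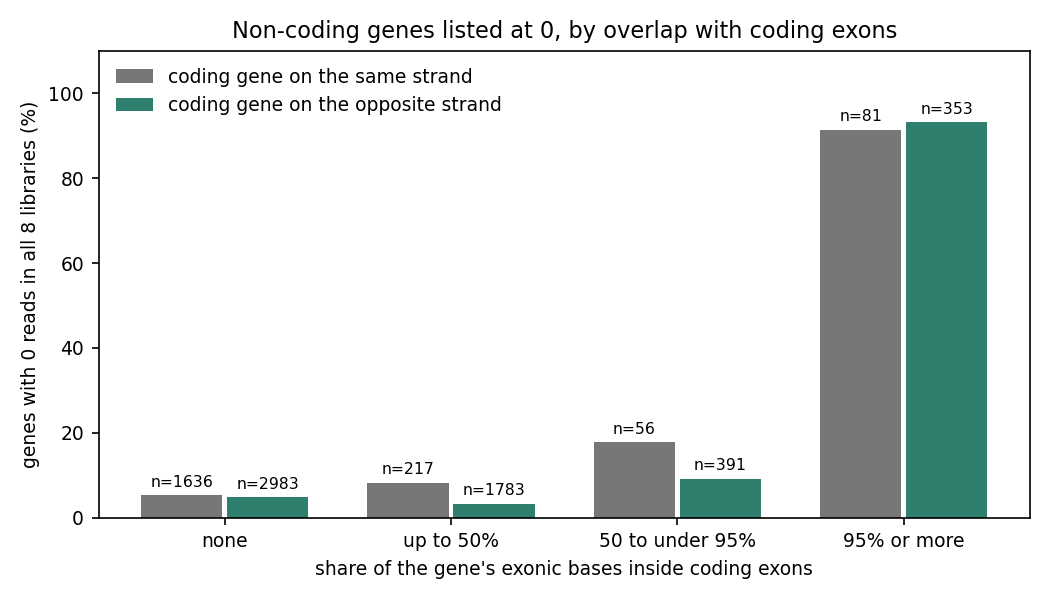
Share of non-coding genes with 0 reads in all 8 libraries (vertical axis, percent) by the share of their exonic bases inside coding exons (horizontal axis), for coding genes on the same strand (grey) and the opposite strand (green), with the number of genes above each bar. In the class covered by at least 95%, 91.4% of genes on the same strand and 93.2% on the opposite strand were at 0. Coding genes under a minimum read total were left out.

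The sequences below show where such reads can and cannot be counted. Each is the antisense strand, 5′ to 3′, from the GENCODE release 29 transcripts on GRCh38, and capitals mark bases that also lie in coding exons of the partner. AC006064.4 (chr12:6537794-6537985, minus strand) shows a stretch wholly opposite GAPDH coding exons. NR2F1-AS1 (chr5:93585329-93585506, minus strand) and DBH-AS1 (chr9:133657127-133657249, minus strand) show a boundary where capitals meet bases outside those coding exons. These lower-case bases still lie inside the partner's span, where its unspliced RNA is counted too. GPC6-AS1 (chr13:94154257-94154406, minus strand), from an intron of GPC6, and MAFG-DT (chr17:81929476-81929625, plus strand), outside every coding gene, have no capital.
AC006064.4: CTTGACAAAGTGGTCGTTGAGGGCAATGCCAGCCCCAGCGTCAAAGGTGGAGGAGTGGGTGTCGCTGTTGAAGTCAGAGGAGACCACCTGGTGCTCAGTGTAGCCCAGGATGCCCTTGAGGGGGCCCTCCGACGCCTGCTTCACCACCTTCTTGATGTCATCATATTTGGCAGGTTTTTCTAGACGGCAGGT
NR2F1-AS1: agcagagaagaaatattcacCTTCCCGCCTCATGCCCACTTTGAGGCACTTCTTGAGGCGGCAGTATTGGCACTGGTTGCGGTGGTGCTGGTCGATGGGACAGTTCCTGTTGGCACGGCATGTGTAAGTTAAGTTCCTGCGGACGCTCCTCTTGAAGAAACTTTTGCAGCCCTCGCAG
DBH-AS1: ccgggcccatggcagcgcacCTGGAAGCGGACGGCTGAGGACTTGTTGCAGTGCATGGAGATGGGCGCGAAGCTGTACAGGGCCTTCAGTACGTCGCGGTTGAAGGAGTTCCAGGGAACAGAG
GPC6-AS1: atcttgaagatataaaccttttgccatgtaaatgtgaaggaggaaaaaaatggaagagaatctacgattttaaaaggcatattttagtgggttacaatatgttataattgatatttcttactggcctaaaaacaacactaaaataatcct
MAFG-DT: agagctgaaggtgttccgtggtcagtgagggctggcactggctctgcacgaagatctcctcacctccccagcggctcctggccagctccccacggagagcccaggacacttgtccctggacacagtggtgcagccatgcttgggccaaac

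Of the 2600 members, 2364 overlapped a coding gene on the opposite strand, 121 started back to back with one within 1000 bases without overlap, and 115 did neither. They lay over 2000 different coding genes, 301 overlapped more than 1, and 1362 shared exonic bases with the partner. Members over the same coding gene share that gene's RNA in these counts and are not independent of each other.

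Counts at antisense genes were more often higher than lower in ERRg libraries. Of the 2225 members that passed the low-count filter, 1118 were higher and 294 lower in edgeR's quasi-likelihood test at an adjusted p under 0.05, which is 50.2% and 13.2%. Among all 21993 genes tested, 74.7% were called, 38.8% higher and 35.9% lower, and among 13433 coding genes 29.0% and 50.6%. The median log2 fold change, ERRg over GFP, was 0.56 for tested members, 0.09 for all genes and -0.30 for coding genes. The groups did not overlap at 1221 of the 2225 members, against 68.4% of all genes. The filter left out 375 members. With all 2600 in the fit, 1074 were higher and 329 lower, with a median of 0.46, where 21.9% of all genes were higher and 20.5% lower. The split between directions depends on the scaling. With upper-quartile factors, which move the median of all genes to 0.40, 1376 members were higher and 171 lower. These were 61.8% and 7.69%, beside 50.2% and 27.5% of all genes. Library totals, which move that median to 0.50, gave 1437 and 129. These were 64.6% and 5.80%, beside 53.6% and 24.5% of all genes.

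Position relative to the coding gene divided the members. Those lying within a coding gene were higher in 726 of 1178 cases and lower in 65 (median 0.85), and those wholly in its introns in 483 and 31 of 713 (median 0.99). Tail-to-tail members were higher in 191 and lower in 52 of 374 (median 0.49). Head-to-head members, which overlap the partner at its start, were divided evenly, with 118 higher and 119 lower of 421 (median -0.04). Divergent members without overlap were higher in 20 and lower in 33 of 97 (median -0.20). These last 2 balances turn with the scaling: upper-quartile factors gave 172 higher and 67 lower head to head, and 28 and 19 divergent.

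**Figure D2:**
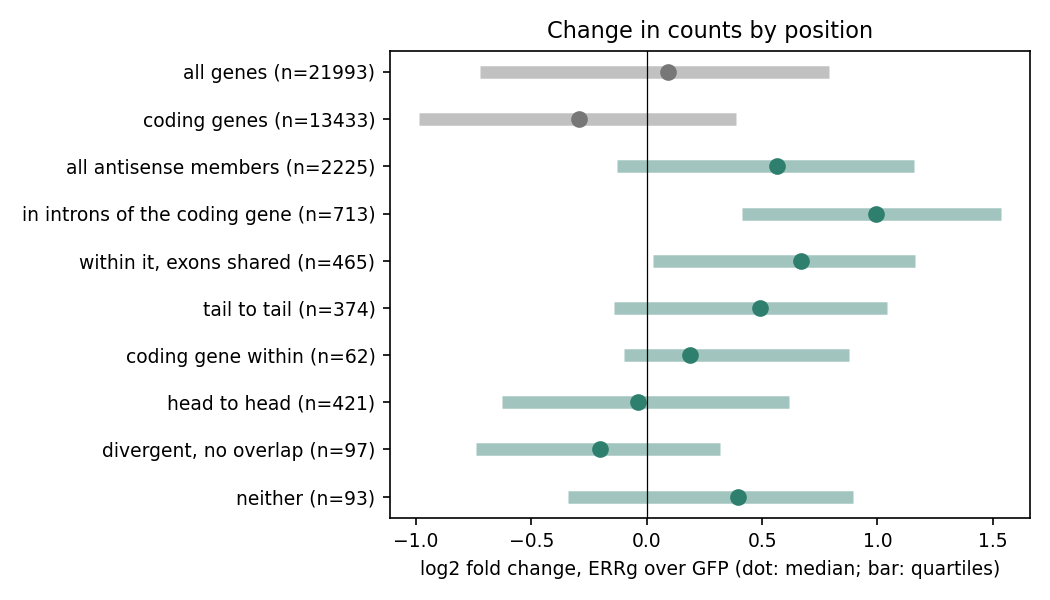
Median (dot) and quartiles (bar) of the log2 fold change, ERRg over GFP, for all genes and coding genes (grey) and for antisense members by position (green), with the number tested. Among the member classes, medians run from 0.99 for members in introns to -0.20 for divergent members without overlap, and the median of coding genes was -0.30.

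The higher counts went with location inside a coding gene, less so with the offsets given below for base composition, length and span. Where no exonic base lay inside any coding gene's span, 49 of 184 tested members were higher and 50 lower, with a median of -0.05. Where all exonic bases did, 779 of 1285 were higher and 74 lower, with a median of 0.82. Other gene models in introns were mostly higher as well: sense intronic genes on the same strand were higher in 278 and lower in 11 of 405 (median 0.95), and processed pseudogenes, copies of spliced mRNAs, on the opposite strand in 630 and 12 of 822 (median 1.08). Antisense genes in introns on the opposite strand gave 470 and 23 of 676 (median 1.02). In these intron sets the coding gene had to pass a minimum read total, so the 676 are not the 713 intron members given above.

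The share of all reads that fell outside annotated exons moved with these counts. GFP libraries had 20.9% ± 3.58 and ERRg libraries 46.7% ± 1.31 of reads there (SD, n = 4 per group), a 2.23-fold difference with no overlap between groups. As a share of gene reads, members within coding genes held 0.153% ± 0.0212 in GFP and 0.352% ± 0.00331 in ERRg, 2.30-fold more. Head-to-head members held 1.50-fold more and divergent members 1.13-fold more. Reads of the nuclear RNAs NEAT1 and MALAT1 went from 0.481% ± 0.0995 to 2.68% ± 0.388 of gene reads. The part of unspliced or nuclear RNA in the higher counts was not tested. In bulk RNA, fewer cells of a kind and less RNA per cell cannot be told apart.

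**Figure D3:**
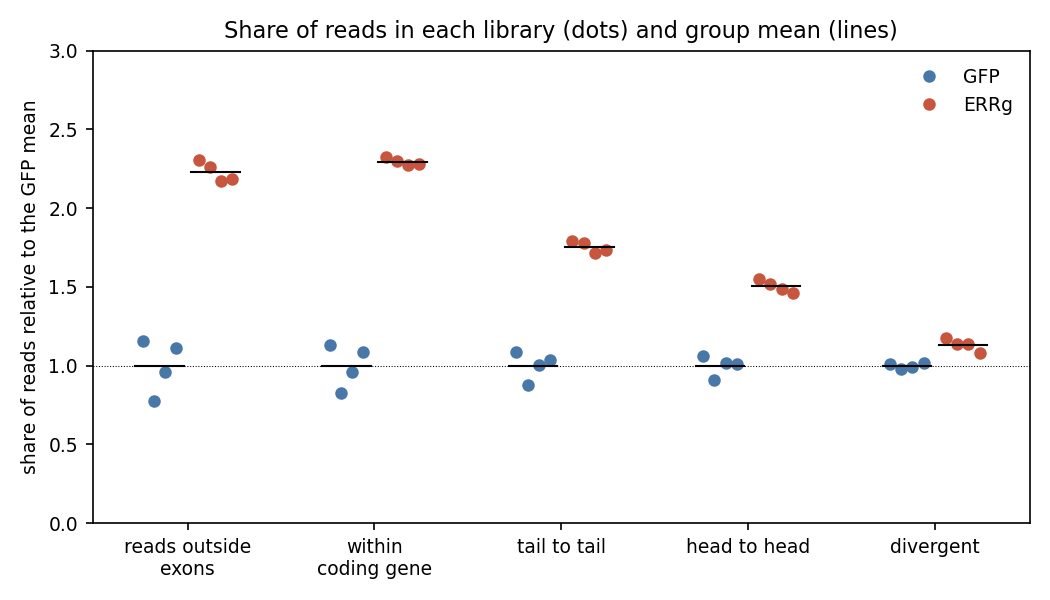
Share of reads in each library (dots; blue GFP, red ERRg), divided by the GFP mean of that measure, with group means as lines. Reads outside exons are a share of all reads and members a share of gene reads, so their folds have unlike denominators. Reads outside exons stood 2.23-fold above GFP. Among the member measures drawn, those within coding genes stood furthest above GFP (2.30-fold) and divergent members least (1.13-fold).

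Base composition also went with the change. Over tested members, the log2 fold change and the GC content of the longest transcript had Pearson r = -0.47 and Spearman rho = -0.49 (n = 2225 genes in the same 8 libraries, given as a description). In 5 equal classes of rising GC content, the median log2 fold change was 1.04, 0.88, 0.65, 0.30 and -0.27. Members called higher had a median GC content of 43.7% and those called lower 53.4%. With per-library offsets for GC content, length and span (sequence offsets), 777 members were higher and 335 lower (median 0.24), and within coding genes 435 and 116 (median 0.33). These were 34.9% and 15.1% of tested members, and 36.9% and 9.85% within coding genes. Among all 21303 genes in that fit, 28.6% were higher and 34.8% lower (median -0.03). Tail-to-tail members gave 166 higher and 53 lower (median 0.37), and those with a coding gene inside their span 27 and 7 (median 0.35). Head-to-head members gave 115 and 94 (median 0.03) and divergent members 14 and 38 (median -0.33). Members within coding genes thus did not have the highest median in that fit.

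Of the 10 members named for the largest rises, 8 lay within a coding gene. All 10 were named among members called at an adjusted p under 0.05 by edgeR whose groups did not overlap, so that separation is no finding. STPG2-AS1, MAGI2-AS1, MPPED2-AS1, BTBD9-AS1, AL031429.1 and AL392024.1 held fewer than 50 reads over all GFP libraries. They met the minimum through the ERRg libraries, so the rule that chose them drew on the group where they are high. CACNA2D3-AS1 (chr3:54874605-54901255, minus strand), opposite the gene of a calcium channel subunit, was at 0.642, 0.414, 0.612 and 0.741 CPM in GFP and 4.07, 5.48, 4.88 and 5.65 CPM in ERRg. All ERRg libraries lay above all GFP libraries, with a log2 fold change of 3.06 (SE 0.21, adjusted p = 1.59e-10 by edgeR). CACNA2D3 itself rose by 1.29 (SE 0.08, adjusted p = 1.04e-10 by edgeR), and the ratio of the antisense to the coding count rose by 1.75 (SE 0.22, limma adjusted p = 0.00018). GPC6-AS1 (chr13:94154193-94187991, minus strand), from the intron printed above, was at 0.571, 0.241, 0.252 and 0.906 CPM in GFP and 4.98, 4.02, 2.95 and 3.37 CPM in ERRg. Its log2 fold change was 2.98 (SE 0.30, adjusted p = 1.59e-08 by edgeR), beside 0.64 for GPC6, a cell-surface proteoglycan gene. STPG2-AS1 was at 0.365 ± 0.0757 CPM in GFP and 2.51 ± 0.444 in ERRg (SD, 4 libraries each) (2.76, SE 0.26, adjusted p = 5.79e-09 by edgeR), while STPG2, at 0.683 ± 0.179 CPM in GFP and 0.702 ± 0.239 in ERRg (SD, 4 libraries each), did not pass the test (0.04, adjusted p = 0.906). MAGI2-AS1, LINC00901 in LSAMP and BTBD9-AS1 rose by 2.70, 2.58 and 2.52, and their coding genes by 0.83, 0.61 and 0.28. With sequence offsets in edgeR, GPC6 at 0.086 (adjusted p = 0.286) and LSAMP at -0.052 (adjusted p = 0.512) did not pass.

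RDH10-AS1 (chr8:73297711-73356461, minus strand), tail to tail with a retinol dehydrogenase gene, was the most abundant of these at 3.14, 2.07, 3.42 and 4.08 CPM in GFP and 21.0, 18.3, 16.7 and 16.9 CPM in ERRg. No GFP library reached the lowest ERRg library, and the log2 fold change was 2.53 (SE 0.16, adjusted p = 7.53e-11 by edgeR) against 0.26 for RDH10, which did not pass without the low-count filter (edgeR adjusted p = 0.0777). MPPED2-AS1, head to head, rose together with its partner: 2.59 and 2.50, and their ratio did not pass the test (0.05, SE 0.28, limma adjusted p = 0.894). Among clone-named members, AL031429.1 in PTGER3, a prostaglandin receptor gene, held 0 to 5 reads in a GFP library and 36 to 54 in an ERRg library, and its log2 fold change of 4.63 became 5.80 without GFP replicate 1. AL392024.1 in DPF3 had 0 to 3 and 22 to 33 reads, and DPF3 itself rose by 3.28 (SE 0.17, adjusted p = 6.13e-12 by edgeR).

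**Figure D4:**
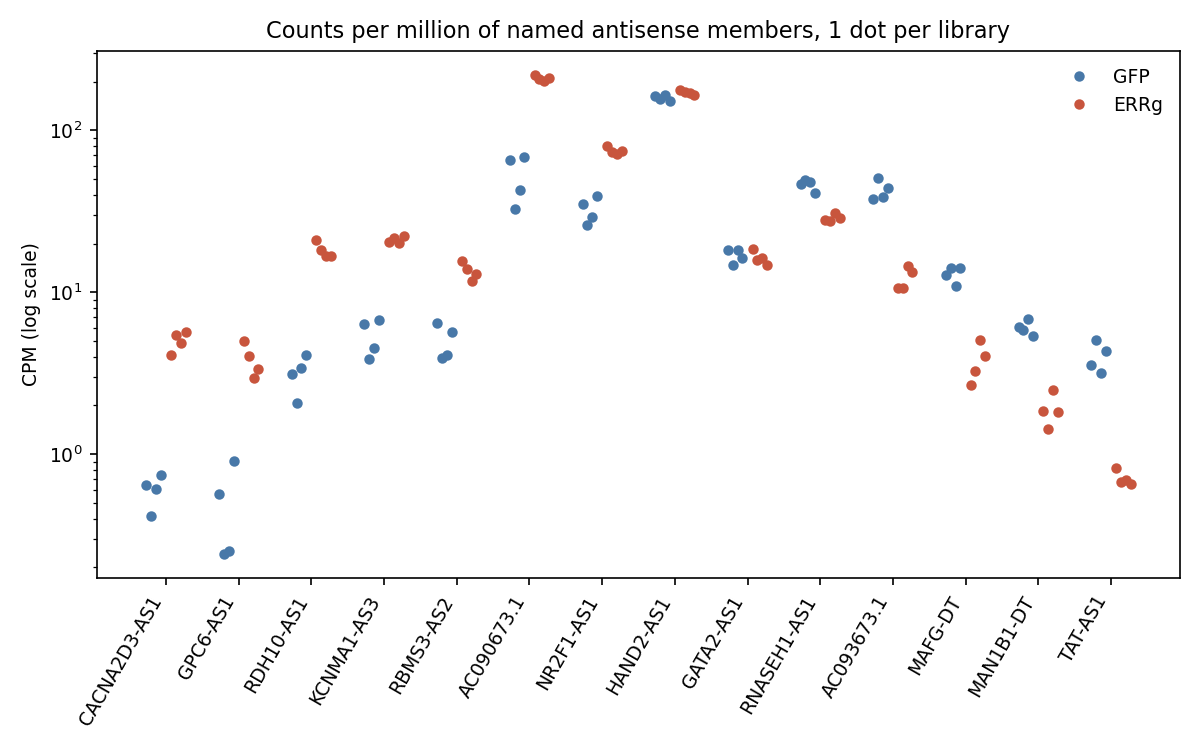
CPM (log axis) of 14 antisense members, 1 dot per library, GFP in blue and ERRg in red. The groups are apart for 12 of them and overlap for HAND2-AS1 and GATA2-AS1 only. Members named for the largest rises and falls were chosen among those with groups apart.

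Of the 10 members named for the largest falls, 4 were head to head with a coding gene and 3 divergent from one. MAFG-DT (chr17:81927829-81930753, plus strand), which starts back to back with the transcription factor gene MAFG, was at 12.9, 14.1, 11.0 and 14.1 CPM in GFP and 2.67, 3.27, 5.05 and 4.02 CPM in ERRg. Every ERRg library was below every GFP library, with a log2 fold change of -1.79 (SE 0.16, adjusted p = 2.79e-09 by edgeR), and MAFG fell by 1.30 on the same scale. MAN1B1-DT (chr9:137084946-137086817, minus strand) was at 6.10, 5.83, 6.80 and 5.39 CPM in GFP and 1.85, 1.43, 2.50 and 1.83 CPM in ERRg. It fell by 1.67, and MAN1B1, a mannosidase gene of protein quality control, by 1.45. AC124068.2, beside POLG, the mitochondrial DNA polymerase gene, was at 1.43 ± 0.339 CPM in GFP and 0.283 ± 0.146 in ERRg (SD, 4 libraries each) and fell by 2.33, with POLG down by 0.75, a direction that turned with sequence offsets, to 0.17 (adjusted p = 0.0189) by edgeR. PCAT6, which overlaps no coding gene, was at 4.20 ± 0.730 CPM in GFP and 1.48 ± 0.153 in ERRg (SD, 4 libraries each) and fell by 1.50. None of these 4 has an exonic base inside a coding gene's span. AC124068.2 held fewer reads than the minimum total over all ERRg libraries. It met the minimum through the GFP libraries, so the rule that chose it drew on the group where it is high.

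Among head-to-head members, TAT-AS1 (chr16:71565789-71578187, plus strand) was at 3.57, 5.11, 3.17 and 4.36 CPM in GFP and 0.823, 0.676, 0.698 and 0.650 CPM in ERRg. It fell by 2.50, and TAT, the tyrosine aminotransferase gene, was listed at 0 to 4 reads per library and was not tested. PDCD4-AS1 was at 1.72 ± 0.205 CPM in GFP and 0.572 ± 0.262 in ERRg (SD, 4 libraries each) and fell by 1.58 while PDCD4 did not pass the test (-0.10, adjusted p = 0.363), so the ratio fell too (-1.54, SE 0.33, limma adjusted p = 0.00304). EXOC3-AS1 and COLCA1 fell by 1.33 and 1.79, while EXOC3 and COLCA2 fell by 0.71 and 1.54. AGAP2-AS1, within AGAP2, fell by 2.17, and AGAP2 by 1.15. With fewer reads than the minimum total over all ERRg libraries, AGAP2-AS1 met it through the GFP libraries, where it is high. AC107884.1, tail to tail with the synaptotagmin gene SYT9, fell by 2.55, less than SYT9, which fell by 3.88. With sequence offsets in edgeR, EXOC3 was higher at 0.26 (adjusted p = 0.000418), AGAP2 at -0.072 (adjusted p = 0.44) and COLCA2 at -0.76 (adjusted p = 0.127) did not pass, and PDCD4 was lower at -0.50 (adjusted p = 1.04e-05). With library totals PDCD4 was higher at 0.30 (adjusted p = 0.0118) by edgeR.

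Members with no base inside a coding gene also held rises, named here after their values were seen. AL645568.1 (chr1:173417793-173461362, minus strand) overlaps no coding gene and was at 8.10, 6.38, 7.09 and 7.82 CPM in GFP and 22.8, 19.9, 20.7 and 21.0 CPM in ERRg. All ERRg libraries were above all GFP libraries, with a log2 fold change of 1.52 (SE 0.11, adjusted p = 2.34e-10 by edgeR). AL109741.1 beside S1PR1, a sphingolipid receptor gene, rose by 1.88 from 4 to 11 reads per GFP library. It met the minimum total through the ERRg libraries.

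Of 1920 overlapped coding genes tested, 665 were higher and 862 lower (34.6% and 44.9%, where 29.0% and 50.6% of all coding genes were), with a median log2 fold change of -0.13. This balance turns with the scaling: upper-quartile factors gave 905 higher and 624 lower, and library totals 993 and 534. With TMM factors, in 1970 pairs with both genes tested, the pair moved up together in 510 cases and down together in 154, the antisense gene was higher where the coding gene was lower in 296, and the reverse held in 42. The within-library ratio of the antisense to the coding count was raised in 1058 pairs and lowered in 152 (limma on log2 ratios, pseudocount 0.5, adjusted p under 0.05), where 52.3% and 8.72% of 2442 long non-coding pairs were. Those 2442 include the 1970, and of the 472 pairs without a member 46.6% were raised and 12.9% lowered. Within coding genes 755 of 1153 ratios were raised and 35 lowered, with a median change of 1.00. Head to head, 121 of 404 were raised and 85 lowered, with a median of 0.18. Across pairs the changes of both genes had r = 0.49 in all positions, 0.60 within coding genes and 0.33 head to head, a description over pairs that share libraries and, in introns, reads.

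**Figure D5:**
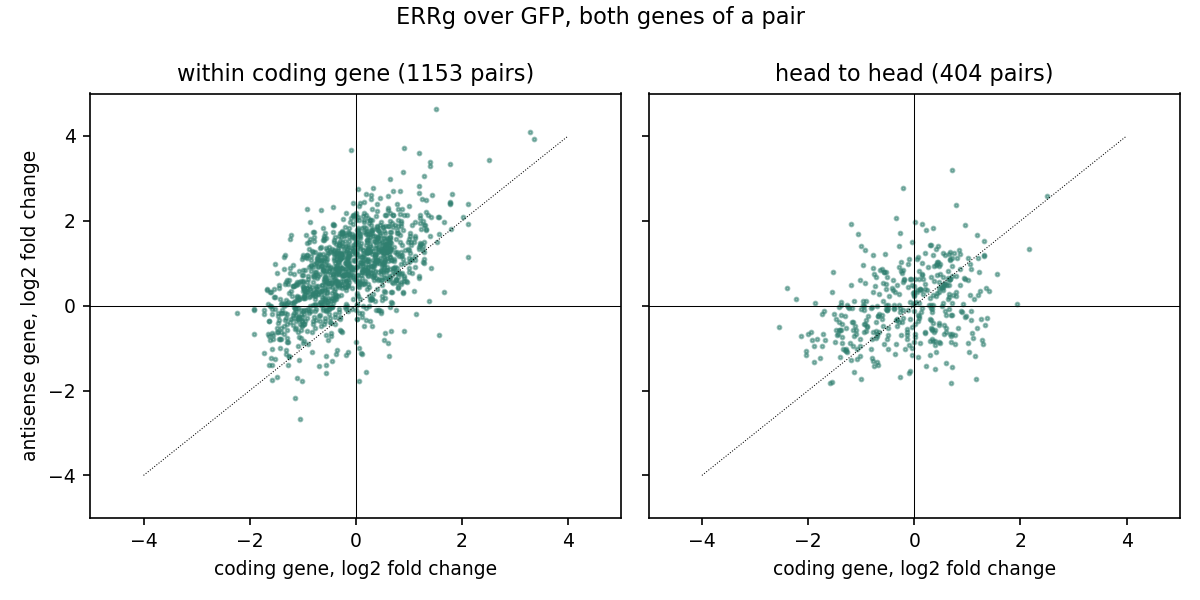
Log2 fold change of the antisense gene (vertical axis) against that of its coding gene (horizontal axis), for 1153 pairs with the antisense gene within the coding gene (left) and 404 head-to-head pairs (right), with the line of equal change dotted. Within coding genes most points lie above the line (median ratio change 1.00), and head to head they lie on both sides (median 0.18).

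Of the 5 most raised ratios, 4 were in introns of coding genes that fell, and the other was that of AL031429.1 to PTGER3, which rose by 3.58 (SE 0.76, limma adjusted p = 0.00272). AC023154.1 in SCFD2 was at 0.777 ± 0.254 CPM in GFP and 3.67 ± 0.496 in ERRg (SD, 4 libraries each), and SCFD2 at 41.4 ± 3.05 CPM in GFP and 26.1 ± 1.57 in ERRg (SD, 4 libraries each), so the ratio rose by 2.93 (SE 0.25, limma adjusted p = 8.59e-05). MGC15885 in TLN2, the talin 2 gene, rose by 1.97 and TLN2 fell by 0.87. KIRREL3-AS2 rose by 2.32 against a fall of 0.43 for KIRREL3, and AC069155.1 by 1.67 against 1.22 for MARCH4, a ubiquitin ligase gene. Over these 4 pairs the antisense exons shared no base with coding exons. MGC15885 and AC069155.1, like AL031429.1, held fewer reads than the minimum total over all GFP libraries. They met it through the ERRg libraries, so the rule that chose them drew on the group where they are high. KIRREL3 did not pass with upper-quartile factors, at -0.12 (adjusted p = 0.3), and was higher with sequence offsets, at 0.31 (adjusted p = 0.00651), both by edgeR.

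Of the 5 most lowered ratios, 4 were head to head. LPP-AS2 (chr3:188151206-188154057, minus strand) was at 5.64, 7.52, 6.80 and 4.65 CPM in GFP and 2.39, 2.97, 4.39 and 3.46 CPM in ERRg. It fell by 0.90 while LPP, an adhesion protein gene, rose by 1.29, and the ratio changed by -2.20 (SE 0.30, limma adjusted p = 0.000248). AC002454.1 fell by 0.81 and CDK6, a cell-cycle kinase gene, rose by 1.28. AP000692.2 fell by 1.81 against a rise of 0.69 for MORC3, and AC138207.2 by 1.45 against 0.71 for NF1, a Ras regulator gene. AP000692.2 and AC138207.2 held fewer reads than the minimum total over all ERRg libraries. They met it through the GFP libraries, so the rule that chose them drew on the group where they are high. BRWD1-AS2, the exception inside its partner, fell by 0.69 (adjusted p = 0.0283, 0.101 without ERRg replicate 3 and 0.0515 without ERRg replicate 1), and BRWD1 rose by 1.56. In edgeR, BRWD1-AS2 did not pass with upper-quartile factors, at -0.38 (adjusted p = 0.208), or with sequence offsets, at -0.30 (adjusted p = 0.346), nor did NF1 with the latter, at -0.056 (adjusted p = 0.371).

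By reads per kilobase of exon, the 5 most abundant members were AC093673.1, RNASEH1-AS1, AL355574.1, AC090673.1 and AC006059.1. AC090673.1 (chr12:65851340-65882167, minus strand), within the chromatin gene HMGA2, was at 65.9, 32.5, 42.7 and 68.3 CPM in GFP and 221, 208, 203 and 212 CPM in ERRg. It rose by 2.01, against 0.27 for HMGA2 (adjusted p = 0.0113, 0.0944 without GFP replicate 1 and 0.0602 without GFP replicate 2). AC093673.1, beside ZYX, was at 37.9, 50.5, 38.9 and 43.8 CPM in GFP and 10.7, 10.6, 14.5 and 13.3 CPM in ERRg and fell by 1.80, while ZYX is listed at 0 to 3 reads per library, which as for CPSF1 may be a failed count. RNASEH1-AS1 was at 46.5, 49.1, 48.2 and 41.3 CPM in GFP and 28.1, 27.7, 30.7 and 28.6 CPM in ERRg. It fell by 0.69, and RNASEH1, an enzyme gene for RNA in RNA-DNA hybrids, fell by 0.26 (edgeR adjusted p = 0.052 for RNASEH1 with the replicate number as a block). AL355574.1 and AC006059.1 rose by 0.46 and 0.87. With sequence offsets in edgeR, HMGA2 was lower at -0.43 (adjusted p = 1.44e-06) and RNASEH1 higher at 0.23 (adjusted p = 0.00832), and with upper-quartile factors RNASEH1 did not pass, at 0.048 (adjusted p = 0.615).

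A list of 40 much-studied antisense genes, many opposite neural crest or neuronal genes, had 21 members, of which 12 were higher and 2 lower. These shares of 57.1% and 9.52% stand beside 50.2% and 13.2% of all tested members and 38.8% and 35.9% of all genes. HAND2-AS1 (chr4:173527270-173659696, plus strand), opposite the neural crest transcription factor gene HAND2, was at 163, 156, 167 and 152 CPM in GFP and 177, 173, 169 and 166 CPM in ERRg. The groups overlap and the change did not pass the test (0.10, SE 0.08, adjusted p = 0.263 by edgeR), while HAND2 fell by 0.92. GATA2-AS1, at 18.2, 14.8, 18.2 and 16.3 CPM in GFP and 18.5, 15.8, 16.3 and 14.8 CPM in ERRg, did not pass either (-0.05, SE 0.11, adjusted p = 0.708 by edgeR), and GATA2, another transcription factor gene of these cells, fell by 1.23. At HAND2 and GATA2 the antisense to coding ratio was raised, by 1.02 and 1.19 in log2, and DBH-AS1, named after its values were seen, had -0.18 (SE 0.31, adjusted p = 0.607 by edgeR) where DBH, the noradrenaline enzyme gene, fell by 2.24. The single-gene values depend on the processing. With sequence offsets in edgeR, HAND2-AS1 was lower at -0.56 (adjusted p = 1.06e-07), HAND2 did not pass at 0.034 (adjusted p = 0.63), and GATA2-AS1 was higher at 0.75 (adjusted p = 7.62e-06). With upper-quartile factors HAND2-AS1 and GATA2-AS1 were both higher, at 0.41 (adjusted p = 0.000104) and 0.26 (adjusted p = 0.0385).

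NR2F1-AS1 (chr5:93409359-93585648, minus strand) was at 35.2, 26.2, 29.0 and 39.1 CPM in GFP and 80.6, 73.3, 71.9 and 74.1 CPM in ERRg. It rose by 1.21 (SE 0.11, adjusted p = 4.53e-09 by edgeR) and NR2F1, an orphan nuclear receptor gene, fell by 0.56. The fall of NR2F1 turned to a rise with sequence offsets, at 0.50 (adjusted p = 7.91e-06), and did not pass with library totals, at -0.15 (adjusted p = 0.137), both by edgeR. Only 4.15% of the exonic bases of NR2F1-AS1 lie inside a coding gene's span. DLX6-AS1, with DLX6 inside its own span, rose by 1.83, and DLX6 did not pass the test (-0.10, adjusted p = 0.488). BDNF-AS, tail to tail with the neurotrophin gene BDNF, rose by 1.23, and BDNF had -0.14 (adjusted p = 0.214). LMCD1-AS1 rose by 1.11, less than LMCD1 at 2.71, and TTN-AS1 by 1.40, less than the titin gene TTN at 2.11. PINK1-AS fell by 0.74 and PINK1, a mitochondrial kinase gene, by 0.77. The second listed member to fall was TMPO-AS1, by 0.68. With sequence offsets in edgeR, BDNF was lower at -0.58 (adjusted p = 8.82e-07), and PINK1-AS at -0.23 (adjusted p = 0.1) and PINK1 at -0.19 (adjusted p = 0.202) did not pass. With library totals BDNF and DLX6 were higher, at 0.26 (adjusted p = 0.0281) and 0.31 (adjusted p = 0.0402), and TMPO-AS1 did not pass, at -0.28 (adjusted p = 0.127).

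Some coding genes held 4 or 5 members each. KCNMA1, a potassium channel gene, had 4, all higher, from 1.74 to 2.02 in log2, while KCNMA1 did not pass the test (0.15, adjusted p = 0.0972). KCNMA1-AS3 was at 6.39, 3.86, 4.53 and 6.75 CPM in GFP and 20.6, 21.7, 20.1 and 22.2 CPM in ERRg. LSAMP, a neuronal adhesion gene, had 4 (LINC00901, LINC00903, LSAMP-AS1 and TUSC7), higher by 1.88 to 2.58 against 0.61 for LSAMP, whose call was lost with sequence offsets as given above. All 5 members in FAR2 and all 5 in KIAA1671 were higher, by 0.85 to 1.83 and by 1.26 to 1.77. FAR2 did not pass the test (-0.13, adjusted p = 0.211) and KIAA1671 rose by 0.21 (adjusted p = 0.0424), both by edgeR. SLCO4A1, an anion transporter gene, went the other way: its 3 tested members of 4 fell, with log2 fold changes from -1.83 to -1.01, and SLCO4A1 at -1.58. Members of 1 gene did not always move together. In SNX29, which fell by 0.98, 0 of 3 tested members were called. FOXN3 had 3 members higher and 1 lower, and 1 of 4 was higher in PCGF3 and 2 of 4 in FRMD4A. KCNMA1 was higher with upper-quartile factors, at 0.45 (adjusted p = 2.42e-05), and lower with sequence offsets, at -0.61 (adjusted p = 4.73e-08), both by edgeR. The genes in this paragraph were chosen after their values were seen.

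Genes whose products remove or end short non-coding RNAs were called in both directions, as were 29.0% (higher) and 50.6% (lower) of all coding genes, and nothing particular to these lists is read from their counts. Of 19 tested genes of the nuclear exosome and its adaptors, 7 were higher and 9 lower (36.8% and 47.4%, median 0.01 against -0.30 for coding genes). DIS3, a catalytic subunit, rose by 0.94 and MTREX, the helicase that feeds it, by 0.87, while EXOSC5 had -1.87. Of 15 genes of early termination and cap binding, 4 were higher and 9 lower (median -0.52), with INTS1 of the Integrator complex at -1.51 and PCF11 at 0.71. Of 17 genes that bind, edit or sense double-stranded RNA, 6 were higher and 8 lower (median -0.20), with the editing enzyme gene ADAR at -0.86.

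ERR gamma binds an element written TNAAGGTCA. RefSeq promoter windows of 300 bases, 250 before and 50 after the start (GRCh38.p14), matched 768 members at the GENCODE start. The element, on either strand, was in 9 of these (1.17%) and in 0.951% of all 35116 windows. Of windows of members called higher, 6 of 295 held it (2.03%), and of those called lower, 0 of 136. It was in 3 of 239 windows of members not called (1.26%) and 0 of 98 of those not tested. Whether the element goes with the change was not tested. The shorter AAGGTCA, which the longer one contains, was in 3.78% of member windows and 3.92% of all. Both members printed here carry the element (capitals) in windows inside a coding gene: RBMS3-AS2 (chr3:29642767-29643066, minus strand), which rose by 1.43, and IQCJ-SCHIP1-AS1 (chr3:159768563-159768862, minus strand), by 1.79. These members were chosen after their values were seen, and windows with the element at members not called are not printed. A match is a description of these letters and not a binding site.
RBMS3-AS2: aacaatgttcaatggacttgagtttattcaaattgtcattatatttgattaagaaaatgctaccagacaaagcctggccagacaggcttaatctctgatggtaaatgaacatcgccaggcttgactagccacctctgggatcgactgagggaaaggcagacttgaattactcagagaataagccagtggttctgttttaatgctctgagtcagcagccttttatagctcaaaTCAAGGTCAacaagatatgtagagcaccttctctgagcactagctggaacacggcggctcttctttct
IQCJ-SCHIP1-AS1: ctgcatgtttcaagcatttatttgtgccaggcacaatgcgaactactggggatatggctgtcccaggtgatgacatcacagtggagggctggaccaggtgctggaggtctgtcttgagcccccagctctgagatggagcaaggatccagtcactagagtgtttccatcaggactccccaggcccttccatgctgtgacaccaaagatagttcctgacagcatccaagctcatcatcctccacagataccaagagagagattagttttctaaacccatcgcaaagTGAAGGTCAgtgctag
RBMS3-AS2 was at 6.42, 3.93, 4.10 and 5.72 CPM in GFP and 15.7, 14.0, 11.8 and 12.9 CPM in ERRg, with no overlap between the groups. RBMS3, an RNA-binding protein gene, rose by 0.63, and IQCJ-SCHIP1 did not pass the test (0.04, adjusted p = 0.854). RBMS3 was lower with sequence offsets, at -0.30 (adjusted p = 0.000378), and IQCJ-SCHIP1 higher with library totals, at 0.44 (adjusted p = 0.0304), both by edgeR.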

How the data were processed

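RNA sequencing of 8 libraries was compared. The authors deposited 1 table of raw counts, with no scaling between libraries. The tools named in the submitters' processing notes are STAR 2.7.8a and HTSeq 0.11.3, with Trim Galore 0.6.6, CASAVA and DESeq2, on GRCh38. No source used here names the annotation release or the strand setting of the counting. Its 5 lines that name no gene entered neither library sizes nor tests. Gene types, exons and positions came from GENCODE release 29, matched on Ensembl identifiers without version. Counts were compared with edgeR 4.0.16 in R 4.3.3 (TMM, filterByExpr, quasi-likelihood test, two-sided, Benjamini-Hochberg adjustment over all 21993 genes tested), with group as the sole term. Within-library log2 ratios of antisense to coding counts, with a pseudocount of 0.5, were compared with limma 3.58.1 over 2442 pairs. Both fits were run on simulated counts in which few genes changed, evenly in both directions. Such counts cannot check the scaling of data in which 74.7% of genes are called. CPM values use TMM library sizes.

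The members and lists were chosen with earlier results of these data known. Named members were the 8 with a symbol and 2 with a clone name that changed most in each direction (adjusted p under 0.05, at least 1 CPM in the higher group, groups not overlapping), the 5 most changed ratios in each direction, the 5 highest per kilobase, listed genes and the coding genes of all these. A few pairs that met these rules are not reported here. Nothing in the labels ties replicates to separate cultures, and the spread behind the p-values may be technical. Chi-square per gene between libraries of a group was 2.94 to 42.7, and 2.94 and 5.12 for ERRg replicates 1 and 2 and replicates 3 and 4. Alternatives were other scalings, filters, tests (DESeq2 1.42.0, limma-voom), sequence offsets, the replicate number as a block and each library left out.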

Additional observations from a re-analysis of the deposited data

Results flagged for a closer look

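Of 238 groups of 4 libraries screened, each for a named antisense or coding gene, 14 had a library far from the others by Dixon's ratio, the gap to the nearest library divided by the range. Chance alone flags about 1 group in 20. AL392024.1 stood at 1.34 CPM in ERRg replicate 4 and 0.901 to 0.905 CPM in the others (ratio 0.992). At AGAP2-AS1, the value was 2.17 CPM in GFP replicate 2 and 0.963 to 1.11 CPM in the others of the group (ratio 0.878). AC107884.1 had 0.410 CPM in ERRg replicate 3, against 0.639 to 0.658 CPM elsewhere in the group (ratio 0.92). KIRREL3-AS2 stood at 0.276 CPM in GFP replicate 2 and 0.971 to 1.11 CPM in the others (ratio 0.838). At STPG2, the value was 1.06 CPM in ERRg replicate 4 and 0.534 to 0.617 CPM in the others of the group (ratio 0.84). RDH10 had 178 CPM in ERRg replicate 1, against 164 to 166 CPM elsewhere in the group (ratio 0.871). DPF3 stood at 0.782 CPM in GFP replicate 4 and 1.19 to 1.21 CPM in the others (ratio 0.94). At TAT, the value was 0.123 CPM in ERRg replicate 1 and 0 CPM in the others of the group (ratio 1). TLN2 had 365 CPM in GFP replicate 2, against 346 to 349 CPM elsewhere in the group (ratio 0.844). ZYX stood at 0.0376 CPM in ERRg replicate 2 and 0 CPM in the others (ratio 1). At RNASEH1, the value was 98.7 CPM in ERRg replicate 1 and 102 to 103 CPM in the others of the group (ratio 0.867). PINK1 had 7.87 CPM in GFP replicate 2, against 6.05 to 6.30 CPM elsewhere in the group (ratio 0.865). BDNF stood at 26.4 CPM in GFP replicate 3 and 21.1 to 22.0 CPM in the others (ratio 0.837). At FAM13A, the value was 13.5 CPM in GFP replicate 3 and 12.0 to 12.1 CPM in the others of the group (ratio 0.903).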

How the results depend on the processing

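The antisense majority of higher over lower counts held under each scaling, filter, test and left-out library run, except among members with no exonic base inside a coding gene's span, an alternative chosen after seeing the data, where 49 were higher and 50 lower. Lower members numbered 294 and became 171 with upper-quartile factors, 129 with library totals and 179 with a filter at 1 CPM. Within coding genes, the 65 lower became 40, 29 and 34 under the same settings, and sequence offsets gave 435 higher and 116 lower. With the 1 CPM filter higher members became fewer too, 888 from 1118, and 539 from 726 within coding genes. Head to head, lower members became 67 with upper-quartile factors, and library totals gave 185 higher and 52 lower. The balance of overlapped coding genes, 665 higher and 862 lower, turned with upper-quartile factors to 905 and 624 and with library totals to 993 and 534. With exons that share at least 1 base, a smaller set of genes, 397 were higher and 569 lower. Tested against a log2 fold change of 1, members gave 309 higher and 31 lower of 2225, and those within coding genes 236 and 8 of 1178. Head-to-head members gave 21 and 10 of 421, and overlapped coding genes 69 and 180 of 1920. The share of all genes under this test and under the 1 CPM filter is not given here. Ratios raised and lowered became 412 and 76 with a mean of at least 50 antisense counts, raised ratios 498 with shared exons, and lowered ratios 91 at an adjusted p under 0.01. The settings for antisense counts and for shared exons keep fewer pairs, so their counts cannot be set against those of the full set. Each library left out gave 985 to 1075 members higher and 263 to 310 lower. With the replicate number as a block, 1094 members were higher and 286 lower, 1029 ratios were raised and 137 lowered. Deviations of same-numbered libraries had correlations of 0.088, -0.158, -0.080 and -0.052. These values show no pairing by number, but with 4 libraries per group they cannot exclude it. The block moved the ratios of RNASEH1-AS1, GABPB1-AS1 and FAM13A-AS1 to limma adjusted p of 0.102, 0.0515 and 0.0607. The causes of these shifts were not tested. Log2 fold changes turned sign with upper-quartile factors for GATA2-AS1 0.26, NR2F2-AS1 0.0644, DBH-AS1 0.12, PDCD4 0.20, RNASEH1 0.0483, DLX6 0.20, BDNF 0.17 and TMPO 0.17. Log2 fold changes turned sign with library totals for GATA2-AS1 0.36, NR2F2-AS1 0.16, DBH-AS1 0.22, PDCD4 0.30, RNASEH1 0.15, CAMSAP1 0.0643, DLX6 0.31, BDNF 0.26 and TMPO 0.27. Log2 fold changes turned sign with no low-count filter for STPG2 -0.0085 and IQCJ-SCHIP1 -0.0158. Log2 fold changes turned sign with a filter at 1 CPM in 4 libraries for GATA2-AS1 0.0684, PDCD4 0.0092 and DLX6 0.0129. Log2 fold changes turned sign under GC content, length and span offsets for HAND2-AS1 -0.56, GATA2-AS1 0.75, ZEB1-AS1 -0.0423, ADORA2A-AS1 0.15, DBH-AS1 0.68, STPG2 -0.68, LSAMP -0.052, EXOC3 0.26, POLG 0.17, KIRREL3 0.31, NF1 -0.0558, RNASEH1 0.23, HMGA2 -0.43, HAND2 0.0337, NR2F1 0.50, DLX6 0.25, ZEB2 -0.54, GABPB1 -0.0889, RBMS3 -0.30, IQCJ-SCHIP1 -0.0589 and KCNMA1 -0.61. Of the values turned by these offsets, those of HAND2-AS1, GATA2-AS1, EXOC3, POLG, KIRREL3, RNASEH1, HMGA2, NR2F1, ZEB2, RBMS3 and KCNMA1 passed in the turned direction (edgeR adjusted p under 0.05). Changes in log2 ratio turned sign with a pseudocount of 2 for MPPED2-AS1 -0.20 and AL392024.1 -0.0109, and with array weights for PINK1-AS -0.0068 and ST3GAL6-AS1 0.0551. With each library left out in turn, log2 fold changes that turned sign ran over STPG2 -0.22 to 0.15 and IQCJ-SCHIP1 -0.13 to 0.14, and changes in log2 ratio over MPPED2-AS1 -0.11 to 0.30, COLCA1 -0.56 to 0.17, PINK1-AS -0.0384 to 0.12 and ST3GAL6-AS1 -0.25 to 0.17.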

Other observations

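Other listed antisense genes of metabolic and neuronal partners had values of the same kind. GABPB1-AS1, opposite the gene of a GA-binding protein subunit that acts on nuclear genes of mitochondria, was at 66.5, 52.1, 61.8 and 62.3 CPM in GFP and 127, 128, 105 and 111 CPM in ERRg. It rose by 0.95 (SE 0.10, adjusted p = 2.3e-08 by edgeR), and GABPB1 by 0.41. Only 2.62% of its exonic bases lie inside a coding gene's span. MCM3AP-AS1 and SLC25A25-AS1 rose by 0.49 and 0.55 while MCM3AP and SLC25A25, a mitochondrial carrier gene, fell by 0.53 and 0.98. MEF2C-AS1, FAM13A-AS1 and ST3GAL6-AS1 rose by 1.32, 1.40 and 1.13, and their coding genes by 0.85, 0.84 and 1.19. ZEB1-AS1, ZEB2-AS1, NR2F2-AS1 and ADORA2A-AS1 did not pass the test, with log2 fold changes of 0.23, -0.47, -0.24 and -0.67. With sequence offsets in edgeR, GABPB1 at -0.089 (adjusted p = 0.293) and MCM3AP at -0.078 (adjusted p = 0.208) did not pass. ZEB1-AS1 was higher with upper-quartile factors, at 0.53 (adjusted p = 0.00292), and ADORA2A-AS1 lower without the low-count filter, at -0.72 (adjusted p = 0.0238), both by edgeR.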
